A study of Mus musculus with 5 samples.

Results

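The genes encoded in mouse mitochondrial DNA (mtDNA) were taken from the count table as all genes whose symbol in the GRCm38 annotation starts with mt-. The rule gave 37 of the 55487 genes in the table. They comprise 13 protein-coding genes, 2 rRNA genes and 22 tRNA genes, and all 37 have an entry in each of the 5 libraries.

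The libraries were made from HT22 cells, an immortalized mouse line derived from hippocampal neurons, and the study asked which genes change when the lncRNA GAS5 is knocked down (KD). Transfection lasted 48 h at 10 nM siRNA, and the groups are siRNA210 against GAS5 with 1 library, siRNA596 against GAS5 with 2 and the negative control NC siRNA with 2. The treatment label of the NC libraries reads untreated, whereas the titles and the treatment protocol give NC siRNA. All 5 libraries therefore come from 1 cell line, and nothing in the labels says that they come from separate cultures, so *P*-values measure only the spread between these libraries, which may be technical. The mRNA was purified on oligo-dT beads, and the library kit named in the labels does not mark strand.

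Library totals lay between 30660265 and 36492134 counts. The library labelled siRNA596 replicate 2 stood apart from the rest, with 3321 of 10574 expressed genes more than 2-fold from the other libraries against 27 to 81 genes for each of the others. *Gas5*, the targeted gene, gave 93.8 and 79.9 CPM (counts per 1000000 counts of the library) in NC, 61.1 with siRNA210, 68.2 in siRNA596 replicate 1 and 154 in the library labelled siRNA596 replicate 2, so that library went against its label. Comparisons of KD with NC below use all 5 libraries, and values without that library (4 libraries) stand beside them. Of 10 neuronal markers, *Tubb3* and *Map2* passed 1 CPM in all libraries and *Snap25*, *Nefl*, *Nefm*, *Dcx* and *Prox1* were at 0 in all of them. The summed neuronal markers lay at 96.2 to 107 CPM in 4 libraries and at 44.0 CPM in the library labelled siRNA596 replicate 2. The microglial list summed to 23.9 to 26.4 CPM in those 4 libraries and to 36.5 CPM in that library, nearly all of it from *Tmem119*, while the astrocyte and oligodendrocyte lists stayed below 4 CPM everywhere. The part of these markers in the results below was not tested.

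The mtDNA is a small circle present in many copies per cell. Both of its strands are transcribed into long polycistronic RNAs, from which the tRNAs that lie between the other genes are cut out. Most of the released mRNAs, and the rRNAs, receive a poly(A) tail. The proteins are subunits of complexes I, III, IV and V of the respiratory chain, and all other parts of the machinery, including the RNA polymerase and the factors that process the transcripts, are encoded in the nucleus.

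On the annotation, 28 genes lie on the plus strand and 9 on the minus strand, the latter being *mt-Nd6* and 8 tRNAs. Several genes overlap: *mt-Atp8* (chrM:7766-7969) and *mt-Atp6* (chrM:7927-8607) share 43 bases, *mt-Nd4l* (chrM:9877-10173) and *mt-Nd4* (chrM:10167-11544) share 7, and *mt-Nd5* (chrM:11742-13565) and *mt-Nd6* (chrM:13552-14070), on opposite strands, share 14. Without strand, reads from such overlaps cannot be told apart, and the counts of any gene may include RNA of the opposite strand.

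The annotated transcripts differ in how they end. *mt-Co3*, *mt-Nd4* and *mt-Cytb* end in a single T, the first base of a stop codon that polyadenylation completes, whereas the other mRNAs carry a complete stop, as in *mt-Co1*. The sequences below are from the GENCODE transcripts of GRCm38, 5′ to 3′ on the sense strand, with the stop or its first base in capitals.
mt-Co3: gtctccatttattgatgaggatctT
mt-Nd4: aaactaattacaggcctgacaataT
mt-Cytb: gacaaaatactaaaattatatccaT
mt-Co1: gaaccaacctatgtaaaagtaaaaTAA

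The mitochondrially encoded genes held 1.58% and 1.44% of all counts in NC replicates 1 and 2. They held 1.39% in the siRNA210 library, 1.53% in siRNA596 replicate 1 and 1.13% in the library labelled siRNA596 replicate 2. The lowest share was that of the library labelled siRNA596 replicate 2 (95% Wilson interval 1.124 to 1.132%), and the siRNA210 library (1.390 to 1.398%) also lay below both NC libraries (lower NC interval 1.431 to 1.439%). These intervals cover counting error only. The mean share was 1.35% ± 0.205 (SD, n = 3) in KD and 1.51% ± 0.103 (SD, n = 2) in NC, a difference of -0.157 percentage points (*P* = 0.4, exact permutation test, two-sided, adjusted *P* = 1 over 8 shares), and the difference was -0.0456 points with 4 libraries. This test doubles the smaller tail, so its smallest *P* is 0.2 for 3 against 2 libraries and 0.333 for 2 against 2. In bulk RNA, fewer cells of a type, fewer mtDNA copies and less RNA per copy cannot be told apart. The share also takes the counts of genes with nuclear copies as they stand, which are uncertain, as given below.

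**Figure D1:**
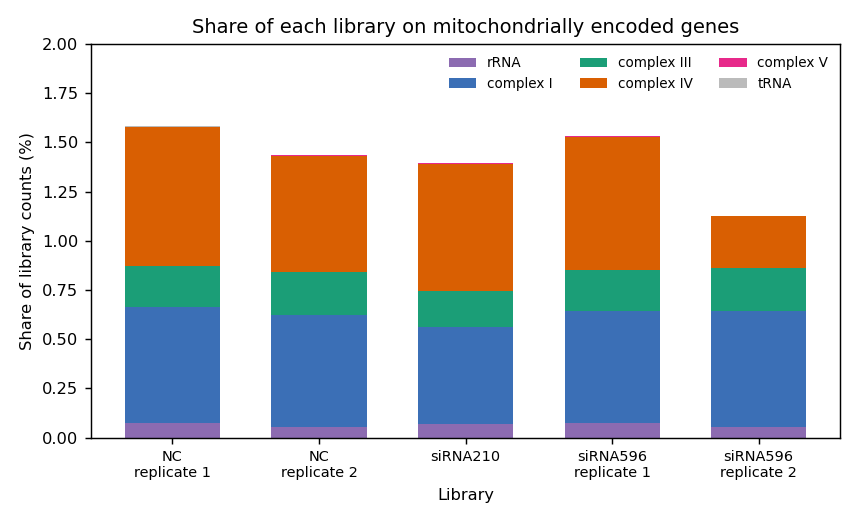
Share of all counts (%) on mitochondrially encoded genes in each of the 5 libraries, with each bar divided by gene class. The bars stand between 1.13% and 1.58%, and the complex IV segment is smallest in siRNA596 replicate 2.

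Counts were present for 16 of the 37 genes. All 13 mRNA genes and both rRNA genes had counts, whereas 21 of the 22 tRNA genes were at 0 in every library. A count of 0 allows a level of up to 3 counts, or 0.0822 to 0.0978 CPM depending on the library. The exception was *mt-Tp* (chrM:15356-15422, minus strand), the tRNA for proline, with 367 and 350 counts in NC, 242 with siRNA210, and 343 and 340 in siRNA596 replicates 1 and 2. Its neighbour *mt-Tt* (chrM:15289-15355, plus strand), the tRNA for threonine that lies between *mt-Cytb* and *mt-Tp*, was at 0 throughout. *mt-Tp* is the last gene on the annotated sequence, with no gene after it. *mt-Tf* (chrM:1-68, plus strand), the first gene, likewise has a neighbour on 1 side only and was at 0, and the other 20 tRNAs had an annotated gene within 32 bases on both sides. Reads that span a tRNA and the adjoining gene can be counted for the longer gene or for neither, depending on the overlap rule, which is not given in the sources used here. The part of gene spacing in the tRNA counts was not tested. The sequence of *mt-Tp* is shown because it is the only tRNA with counts (GENCODE, GRCm38, 5′ to 3′ on the minus strand, with no base marked).
mt-Tp: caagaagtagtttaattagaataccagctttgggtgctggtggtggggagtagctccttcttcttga

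To compare genes of different length, the level of each gene was expressed as TMM-normalized CPM per kb of annotated length. The order is given over the 4 libraries without the library labelled siRNA596 replicate 2, as mean ± SD (n = 4). *mt-Co1*, the catalytic subunit of complex IV, was highest at 4076 ± 337. The complex I subunit gene *mt-Nd1* followed at 2187 ± 196 and *mt-Cytb*, the only complex III gene of mtDNA, at 1717 ± 108. Below them came the complex I genes *mt-Nd2* at 981 ± 81.8, *mt-Nd5* at 719 ± 35.0, *mt-Nd4* at 515 ± 21.3 and *mt-Nd6* at 408 ± 46.6. Each of these neighbours was separated in all 4 libraries by this unit, though the place of *mt-Nd4* depends on the length used, as given below. The rRNAs of the small and large mitochondrial ribosomal subunits, *mt-Rnr1* at 269 ± 52.0 and *mt-Rnr2* at 250 ± 31.4, overlapped each other. Both lay below the 7 mRNAs named so far, in libraries made from oligo-dT selected RNA. *mt-Tp* stood at 134 ± 23.5.

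The remaining 6 mRNAs were far lower. *mt-Co2*, which carries the CuA centre of complex IV, had a level of 40.2 ± 9.19 CPM per kb, and *mt-Atp6*, a subunit of the proton channel of complex V, had 17.5 ± 6.42. *mt-Co3* of complex IV was at 10.8 ± 3.35 and overlapped *mt-Atp6*. The complex I genes *mt-Nd4l* and *mt-Nd3* were at 4.34 ± 1.63 and 2.78 ± 1.27, and *mt-Atp8* of complex V was at 1.72 ± 1.22. In this order *mt-Nd3* overlapped *mt-Nd4l*, and *mt-Atp8* overlapped *mt-Nd3*. Within complex IV, whose core holds 1 copy each of the proteins of *mt-Co1*, *mt-Co2* and *mt-Co3*, the level of *mt-Co1* was thus 4076 CPM per kb against 40.2 and 10.8. Neighbours on mtDNA differed as widely, since *mt-Nd4l* at 4.34 CPM per kb adjoins *mt-Nd4* at 515. *mt-Co2*, *mt-Co3* and *mt-Nd4l* share all or nearly all of their sequence with annotated nuclear copies, as given below. These differences in counts may therefore not be differences in transcript level, which was not tested.

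**Figure D2:**
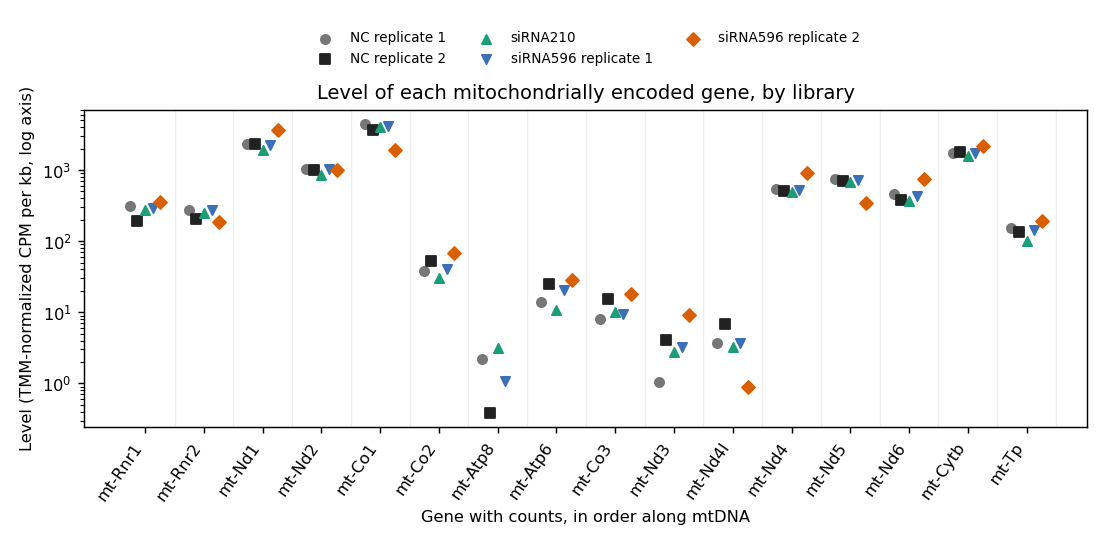
Level (TMM-normalized CPM per kb, log axis) of the 16 mitochondrially encoded genes with counts, in their order along mtDNA, with 1 marker per library. *mt-Co1* and *mt-Nd1* are at the top, the 6 genes *mt-Co2*, *mt-Atp8*, *mt-Atp6*, *mt-Co3*, *mt-Nd3* and *mt-Nd4l* lie below 100 CPM per kb, and *mt-Atp8* has no marker for siRNA596 replicate 2, where it had 0 counts.

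Nuclear genomes hold copies of mtDNA, and reads from a gene with an identical nuclear copy fit both places. Windows of 50 bases from each mitochondrial transcript were therefore searched for, base for base, in all annotated nuclear transcripts of GRCm38. A nuclear copy was found for every window of *mt-Co2* (635 of 635), and the share was 99.9% for *mt-Co3*, 99.5% for *mt-Atp6*, 98.8% for *mt-Nd4l* and 98.0% for *mt-Nd3*. It was 62.2% for *mt-Nd4* and 51.1% for *mt-Co1*. The share was 8.19% for *mt-Nd2*, 7.61% for *mt-Nd5* and 1.04% for *mt-Rnr2*, while *mt-Nd1*, *mt-Nd6*, *mt-Cytb*, *mt-Rnr1* and *mt-Atp8* had no shared window. Per 1000 windows that were not shared, the mean CPM over 4 libraries was 1414 for *mt-Nd4*, above *mt-Nd2* at 1122 and *mt-Nd5* at 799. *mt-Co1* remained highest at 8615. This unit assumes that no read from a shared window was counted, which was not tested. *mt-Co2*, whose windows were all shared, still had 744 to 1379 counts, so the order by this unit is not settled.

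The 5 mRNA genes with more than 90% of their windows shared had levels between 2.78 and 40.2 CPM per kb, with a median of 10.8. The other 7 mRNA genes without *mt-Atp8* lay between 408 and 4076 CPM per kb, with a median of 981, so the groups did not overlap. *mt-Atp8* is the exception, with a level of 1.72 CPM per kb and no shared window, and *mt-Tp*, with none either, was at 134 CPM per kb. The 5 shared genes took 0.284% and 0.503% of mitochondrial counts in NC, 0.278% with siRNA210, and 0.344% and 0.640% in siRNA596 replicates 1 and 2. How reads with several equally good places were counted is not given in the sources used here, and its part in the low counts was not tested.

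**Figure D3:**
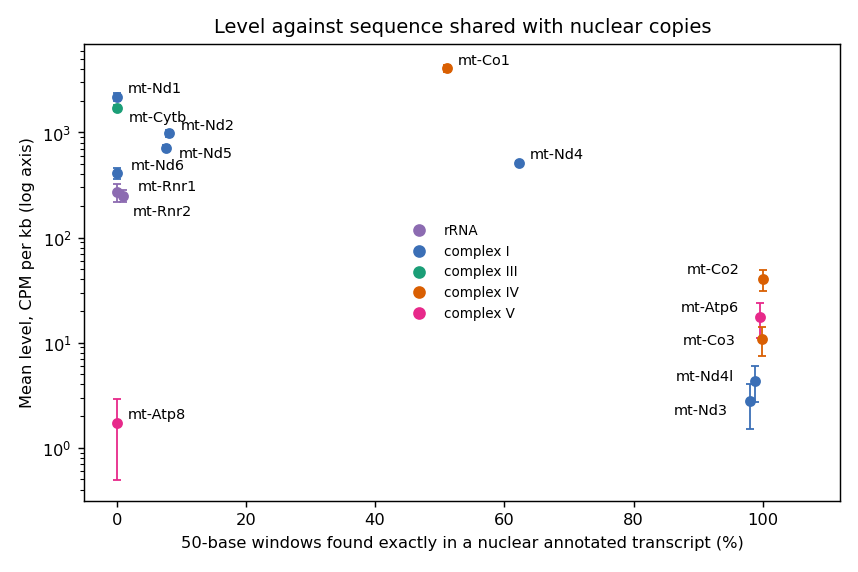
Mean level over 4 libraries (TMM-normalized CPM per kb, log axis, bars show SD) against the share (%) of 50-base windows of each gene found in a nuclear annotated transcript. The 5 genes above 90% lie at 2.78 to 40.2 CPM per kb, *mt-Co1* and *mt-Nd4* lie between the extremes of the horizontal axis, and *mt-Atp8* is low at 0%.

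Windows of 50 bases were shared with 15 nuclear genes, 7 of which form an array on the minus strand of chromosome 1 between 24611535 and 24616197 (GRCm38), a span of 4663 bases. From the high to the low coordinate it holds *Gm29216* (a copy of part of *mt-Co1*), *Gm28661* (*mt-Co2*), *Gm10925* (*mt-Atp6*), *Gm28437* (*mt-Co3*), *Gm28438* (*mt-Nd3*), *Gm10222* (*mt-Nd4l*) and *Gm28439* (part of *mt-Nd4*), the order of the genes on mtDNA. No annotated transcript covers the 233 bases between *Gm10925* and *Gm28661* (chr1:24614652-24614884), and 230 bases separate *mt-Co2* from *mt-Atp6* on mtDNA, where *mt-Atp8* begins. The sequence of that nuclear gap was not analysed here, so the 0% of *mt-Atp8* refers to annotated transcripts only.

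Over their annotated length, *Gm28661*, *Gm10925*, *Gm28437*, *Gm10222* and *Gm28439* had 0 substitutions from mtDNA. *Gm28438* had 1, T3C, counted from 1 at the 5′ end of *mt-Nd3* with the mitochondrial base first. The annotated copy has 345 bases and *mt-Nd3* has 348. The first 30 bases of both are shown because this base alone differs over the 345 aligned bases, and the capitals mark it (GENCODE, GRCm38, 5′ to 3′, *mt-Nd3* at chrM:9459-9806, plus strand, and *Gm28438* at chr1:24612775-24613119, minus strand).
mt-Nd3: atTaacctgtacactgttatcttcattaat
Gm28438: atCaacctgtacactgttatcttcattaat

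*Gm29216* (chr1:24615706-24616197, minus strand) had 6 substitutions over 492 bases, an identity of 98.8%. Counted from the 5′ end of *mt-Co1* (chrM:5328-6872, plus strand), they are T1056A, C1057T, A1059G, A1060G, C1062A and A1066T, so all lie at the start of the copy and the rest is identical. The stretch from base 1054 to 1113 of *mt-Co1* and its counterpart are shown with these bases in capitals.
mt-Co1: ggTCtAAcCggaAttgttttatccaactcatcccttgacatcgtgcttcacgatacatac
Gm29216: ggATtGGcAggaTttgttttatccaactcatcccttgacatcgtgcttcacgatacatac

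Counts were split between the gene and its copy very unevenly from pair to pair. *mt-Nd3* had 13 and 54 counts in NC, 34 with siRNA210, and 41 and 84 in siRNA596 replicates 1 and 2. *Gm28438*, its copy with 1 substitution, had 1224 and 934 counts in NC, 1033 with siRNA210, and 1158 and 2251 in siRNA596 replicates 1 and 2. The nuclear copy thus held 94.5% (95% Wilson interval 92.9 to 95.8%) to 98.9% (98.2 to 99.4%) of the counts of the pair. For the identical pair *mt-Co2* and *Gm28661* the copy held 29.4 to 36.0%. The ranges were 43.8 to 61.1% for *mt-Atp6* and *Gm10925*, 47.8 to 60.4% for *mt-Co3* and *Gm28437*, and 68.3 to 95.6% for *mt-Nd4l* and *Gm10222*. Where the copy covers only part of the gene it held little, with 0.0660 to 0.467% for *mt-Co1* and *Gm29216* and 0.114 to 0.470% for *mt-Nd4* and *Gm28439*. Counts of these pairs are uncertain for both genes, and changes of *mt-Co2*, *mt-Co3*, *mt-Atp6*, *mt-Nd3* and *mt-Nd4l* below are to be read with this limit. It applies in part to *mt-Nd4* (62.2% of windows shared) and *mt-Co1* (51.1%), and to the ratios and shares below that include them.

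In the comparison of KD with NC, 16 mitochondrially encoded genes passed the expression filter, which is every member with counts. None was called in the fit of all 5 libraries by the quasi-likelihood test of edgeR at a Benjamini-Hochberg adjusted *P* of 0.05, and 0 had an unadjusted *P* under 0.05. Over all genes, 0 of 16142 (0%) passed the adjusted threshold and 60 (0.372%) the unadjusted one. DESeq2 also gave 0 adjusted calls, with 87 genes under an unadjusted *P* of 0.05. With 4 libraries, 0 of the 16 passed either threshold, against 0 of 15867 genes (0%) adjusted and 523 (3.3%) unadjusted. The study's own criteria, which join the unadjusted threshold with a change of over 1 on the log2 scale, selected 0 of the 16 in either fit, against 0.353% of all genes with 5 libraries and 0.876% with 4. The median log2 fold change of the 13 mRNAs was 0.04 beside 0.01 over all genes tested with 5 libraries, and -0.10 beside -0.0023 with 4 libraries. Of the 16 fold changes, 10 lay above 0 with 5 libraries and 5 with 4 libraries.

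The rRNAs gave no called change. Levels in CPM from here on are TMM-normalized. *mt-Rnr1* had TMM-normalized levels of 296 and 185 CPM in NC, 266 with siRNA210, and 280 and 345 in siRNA596 replicates 1 and 2. NC replicate 2 was lowest and the groups overlapped. The log2 fold change was 0.30 (SE 0.29, adjusted *P* = 0.963, edgeR quasi-likelihood test) with 5 libraries and 0.18 (SE 0.18) with 4. SE stands for the absolute log2 fold change divided by the square root of the F statistic of that test. For *mt-Rnr2* the levels were 430 and 324 CPM in NC, 399 with siRNA210, and 430 and 293 in siRNA596 replicates 1 and 2, with a log2 fold change of -0.01 (SE 0.28) and 0.14 (SE 0.12). The rRNA share of mitochondrial counts was 4.86% ± 0.0462 (SD, n = 3) in KD and 4.25% ± 0.733 (SD, n = 2) in NC, and all 3 KD libraries (4.80 to 4.89%) lay above both NC libraries (4.77 and 3.73%). That difference of 0.606 points (0.599 with 4 libraries) had the smallest *P* this form of the test allows (*P* = 0.2, exact permutation test, two-sided, adjusted *P* = 1). It rested largely on NC replicate 2, without which it was 0.0878 points.

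Among complex I genes, *mt-Nd1* had levels of 2227 and 2194 CPM in NC, 1817 with siRNA210, and 2134 and 3538 in siRNA596 replicates 1 and 2. Its groups overlapped because siRNA210 was lowest and the library labelled siRNA596 replicate 2 highest. The log2 fold change was 0.18 (SE 0.35, adjusted *P* = 0.963, edgeR quasi-likelihood test) with 5 libraries and -0.16 (SE 0.09, adjusted *P* = 0.967) with 4. *mt-Nd2*, another core subunit gene of complex I, was steadier, with 1076 and 1034 CPM in NC, 894 with siRNA210, and 1070 and 1032 in siRNA596 replicates 1 and 2, and had log2 fold changes of -0.08 (SE 0.23) and -0.10 (SE 0.10). *mt-Nd4l* had 39 and 77 counts in NC, 34 with siRNA210, and 39 and 7 in siRNA596 replicates 1 and 2. On the TMM-normalized scale it alone had all 3 KD libraries below both NC libraries, narrowly so, with 1.09 CPM in siRNA596 replicate 1 against 1.11 in NC replicate 1, whose counts were equal. Its log2 fold change was -1.01 (SE 0.68, adjusted *P* = 0.963, edgeR quasi-likelihood test) with 5 libraries and -0.61 (SE 0.43, adjusted *P* = 0.967) with 4, and -0.52 without NC replicate 2. In that arrangement 9.48% of all genes tested also lay below, and 8.3% above. With 4 libraries *mt-Nd1*, *mt-Nd4l* and *mt-Cytb* lay below and 0 of the 16 above, where 16.4% of all genes lay below and 16.4% above.

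For complex IV, *mt-Co1* had 6786 and 5572 CPM in NC, 6311 with siRNA210, and 6522 and 3002 in siRNA596 replicates 1 and 2. Without the last library the KD values lay between those of NC. The log2 fold change was -0.23 (SE 0.40) with 5 libraries and 0.05 (SE 0.10) with 4. *mt-Cytb* had 2002 and 2072 CPM in NC, 1786 with siRNA210, and 1996 and 2504 in siRNA596 replicates 1 and 2, with log2 fold changes of 0.04 (SE 0.26) and -0.11 (SE 0.08). The smallest unadjusted *P* among the 16 with 4 libraries was that of *mt-Co2* (0.0718, log2 fold change -0.37, SE 0.18), a gene with every window shared, and with 5 libraries its log2 fold change was 0.03 (SE 0.40). For *mt-Atp8*, with 16 and 3 counts in NC, 23 with siRNA210, and 8 and 0 in siRNA596 replicates 1 and 2, the SE of 1.42 was far above the log2 fold change of 0.15, and with 4 libraries the values were 0.88 and 0.71.

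**Figure D4:**
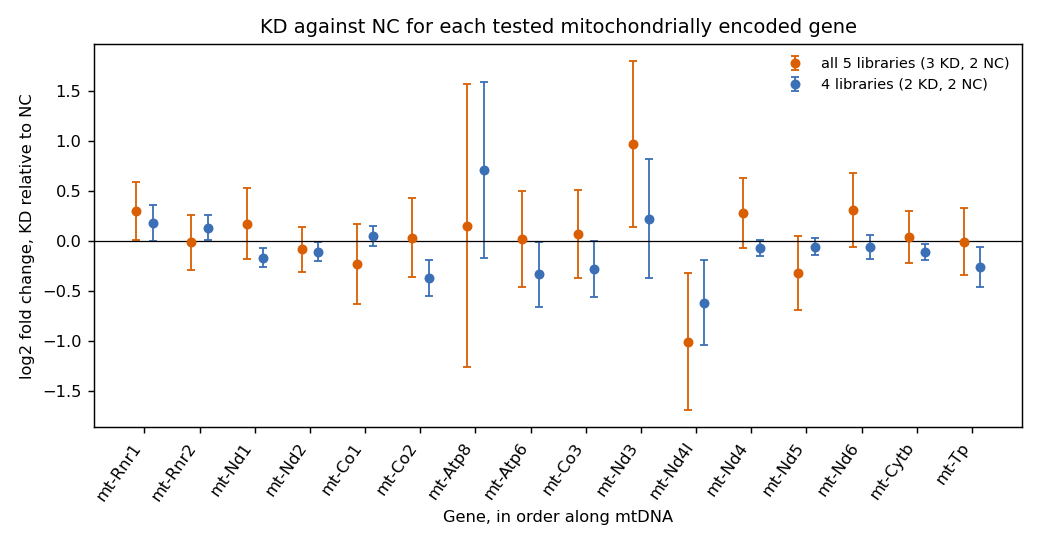
Log2 fold change (KD relative to NC) of the 16 tested genes in their order along mtDNA, from the edgeR fits of 5 and of 4 libraries. Bars show 1 SE, derived from the F statistic of the test. 10 of the 16 estimates lie above 0 with 5 libraries and 5 of 16 with 4 libraries, and the widest bars are those of *mt-Atp8*, *mt-Nd3* and *mt-Nd4l*.

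As shares of mitochondrial counts, complex I genes made up 41.6% ± 9.37 (SD, n = 3) in KD and 38.5% ± 1.80 (SD, n = 2) in NC, complex III 15.2% ± 3.36 and 14.2% ± 1.44, and complex IV 38.1% ± 12.8 and 43.0% ± 2.55. None of these differences passed the exact permutation test, and each had an adjusted *P* of 1 over the 8 shares. With 3 against 2 libraries that test cannot give a *P* below 0.2, so it could not decide. All 3 differences turned direction with 4 libraries: complex I from 3.15 to -2.23 points, complex III from 1.09 to -0.845 and complex IV from -4.86 to 2.50. The wide SD of KD came from the library labelled siRNA596 replicate 2, in which complex I held 52.4%, complex III 19.1% and complex IV 23.4% of mitochondrial counts. Nearly all of the complex IV share was *mt-Co1*, with 44.6% of mitochondrial counts in NC replicate 1 beside 44.8% for complex IV. Counts of genes with nuclear copies are uncertain, so these shares describe counts and may not give the composition of the RNA.

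For siRNA596 (2 libraries) against NC, 15 mitochondrially encoded genes were tested by edgeR, 0 were called and 0 had an unadjusted *P* under 0.05, with a background of 0 of 15827 (0%) adjusted and 41 (0.259%) unadjusted. Without the library labelled siRNA596 replicate 2, 1 siRNA596 library remained, assumed to vary like NC, so only the effect size is given. The median log2 fold change of the 13 mRNAs was then -0.02, beside -0.0062 over all genes tested. The siRNA210 library, with no replicate, was not tested alone. Relative to the mean of NC, the median log2 ratio of the 13 mRNAs was -0.19 in the siRNA210 library, -0.02 in siRNA596 replicate 1 and 0.58 in the library labelled siRNA596 replicate 2.

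Within mtDNA the profile of that library was uneven. Compared with the other 4 libraries as a description, *mt-Nd6* was higher by 0.89 on the log2 scale, *mt-Nd4* by 0.83, *mt-Nd1* by 0.76, *mt-Rnr1* by 0.45 and *mt-Cytb* by 0.35. *mt-Nd2* was at 0.02. *mt-Rnr2* was at -0.43, *mt-Nd5* at -1.04 and *mt-Co1* at -1.07. More than 2-fold lower were *mt-Co1*, *mt-Nd5* and *mt-Nd4l*, 3 of 16 members, and more than 2-fold higher was *mt-Nd3* alone, while over all genes tested 15.1% were lower and 13.5% higher by this measure. Some neighbours on mtDNA went opposite ways, such as *mt-Nd5* and *mt-Nd6*, while others went the same way, such as *mt-Atp6* (0.75) and *mt-Co3* (0.74).

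Ratios within a library, which need no normalization between libraries, showed the same. There were 1.85 and 1.83 counts of *mt-Nd5* per count of *mt-Nd4* in NC, 1.83 with siRNA210 and 1.88 in siRNA596 replicate 1, against 0.507 in the library labelled siRNA596 replicate 2. The ratio of *mt-Nd5* to *mt-Nd6*, which overlap on opposite strands, was 5.80 to 6.62 in 4 libraries and 1.63 in that one. Counts of *mt-Co1* per count of *mt-Nd1* were 2.54 to 3.47 and 0.848. *mt-Rnr2* per *mt-Rnr1*, neighbouring rRNAs, gave 1.45 to 1.76 and 0.848. The order of levels changed with them: in that library *mt-Nd1* was first at 3697 CPM per kb, *mt-Cytb* followed at 2189 and *mt-Co1* came next at 1943. Genes annotated on the minus strand held 3.08% of its mitochondrial counts and 1.43 to 1.63% of those of the others. *mt-Nd6* alone accounted for 2.98% there. Because the kit does not mark strand, these counts may include RNA of the opposite strand. They cannot show a shift between strands.

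Of the members below the other libraries there, *mt-Co1*, *mt-Nd5* and *mt-Rnr2* are the longest genes of mtDNA, whereas *mt-Nd4l* (297 bases, -1.19) and *mt-Atp8* (204 bases, -0.72), which rest on few counts, are the shortest mRNA genes. Across genes, which are not independent replicates and come from the same libraries, the Spearman correlation of the log2 difference with annotated length was -0.758 over the 10 members with a mean count over 1000, a limit chosen after their values were seen, and -0.254 over all 15 tested members longer than the tRNA. Over 16103 nuclear genes it was -0.427. *mt-Nd5* (1824 bases), *mt-Rnr2* (1582) and *mt-Co1* (1545) had a median of -1.04, whereas the 1121 nuclear genes of 1500 to 2000 bases had a median of 0.51 and those above 4000 bases one of -0.42. *mt-Nd4*, at 1378 bases, was higher by 0.83. The part of transcript length or RNA quality in this profile was not tested.

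**Figure D5:**
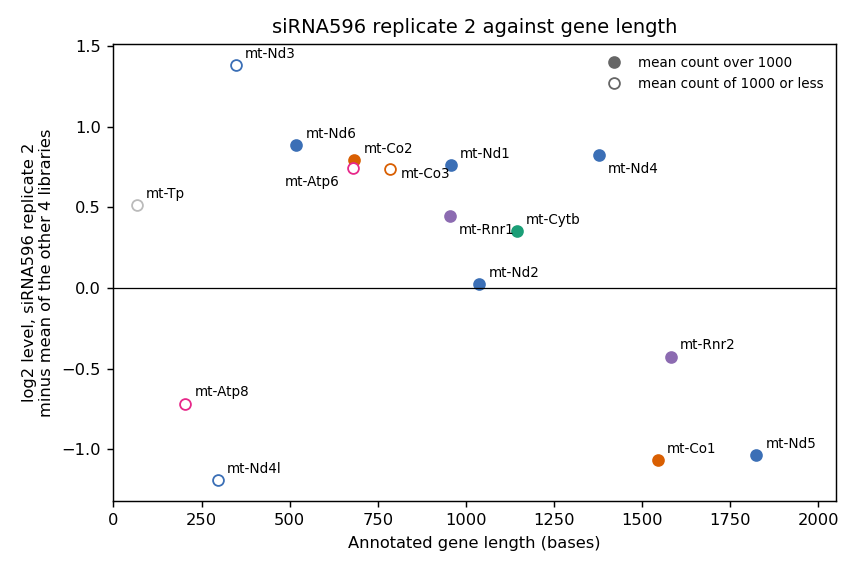
Difference in log2 level between siRNA596 replicate 2 and the mean of the other 4 libraries for the 16 tested genes, against annotated gene length in bases, with filled points for genes of mean count over 1000. *mt-Co1* and *mt-Nd5* lie near -1 at over 1500 bases, *mt-Nd4* lies at 0.83, and open points such as *mt-Nd4l* at -1.19 rest on few counts.

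The nuclear factors that replicate, transcribe and process mtDNA were followed as a list of 53 symbols, of which 51 were in the table and 50 were tested. None was called by edgeR (0 of 50) with 5 or with 4 libraries, against 0 of 16142 and 0 of 15867 genes tested. With 5 libraries 36 lay above 0 and 14 below, with a median log2 fold change of 0.17 beside 0.01 over all genes tested. With 4 libraries 20 lay above and 30 below, with a median of -0.03 beside -0.0023. *Tfam*, which packages mtDNA and activates its promoters, had log2 fold changes of 0.21 and 0.12 with 5 and 4 libraries. *Polrmt*, the mitochondrial RNA polymerase, gave 0.02 and -0.06, and *Lrpprc*, which stabilizes mitochondrial mRNAs, 0.05 and -0.03. *Mtpap*, the poly(A) polymerase of mitochondria, gave 0.15 and -0.09, and *Elac2*, which cuts tRNA 3′ ends, 0.33 and -0.02. *Slirp*, the partner of *Lrpprc*, was not tested, since it had 9 counts in NC replicate 1, 1 in NC replicate 2 and 0 under either siRNA.

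The factors with the smallest unadjusted *P* above 0 were *Hsd17b10*, a subunit of mitochondrial RNase P (log2 fold change 0.70), *Top1mt*, the mitochondrial topoisomerase (0.50), and *Mrpl12*, a ribosomal protein of mitochondria (1.02). Their values with 4 libraries were 0.18, 0.20 and 0.0033. *Mrpl12* had TMM-normalized levels of 84.5 and 102 CPM in NC, 94.8 with siRNA210, and 92.7 and 379 in siRNA596 replicates 1 and 2. Its fold change thus came from the last library. Those below 0 were *Pde12*, which removes poly(A) tails in mitochondria (-0.38 and -0.23 with 4 libraries), *Tfb2m*, the transcription initiation factor (-0.31 and -0.17), and *Polg*, the mtDNA polymerase (-0.27 and -0.05). Each of these 6 had an adjusted *P* of 0.963 in the edgeR fit of 5 libraries.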

How the data were processed

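RNA was sequenced from 5 HT22 libraries. The authors deposited raw counts of whole reads per gene, made by trimming with Trimmomatic, alignment with HISAT2 2.1.0 to GRCm38 and counting with featureCounts 2.0.1 on the Ensembl annotation, with no normalization (versions per the methods and the submitters' processing notes, which also list SAMtools 1.7 and DESeq2 1.26.0). Strand setting and treatment of multi-mapping or overlapping reads are not given in the sources used here. A deposited table of the authors' own DESeq2 comparison (fold changes and *P*-values) was not used.

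The members and gene lists were chosen with earlier results of these data known. Gene IDs were matched to symbols, positions and sequences through GENCODE M21 (GRCm38), which named 55141 of 55487 IDs. Named genes were all members, *Gas5*, 6 mtDNA expression factors plus the 3 in each direction with the smallest unadjusted *P*, and the 5 nuclear copies with the highest mean count. *Gm10222* and *Gm28439* were named after their values were seen, as parts of the same array. Genes past filterByExpr were fitted with TMM normalization and the quasi-likelihood test of edgeR 4.0.16 in R 4.3.3, KD (3) against NC (2), with Benjamini-Hochberg adjustment over all genes tested. The SE of a log2 fold change was its absolute value divided by the square root of the quasi-likelihood F statistic. Levels on the log2 scale used a pseudocount of 0.5 CPM. Shares were compared with exact two-sided permutation tests over libraries, in which the smaller tail was doubled. Alternatives were DESeq2 1.42.0, other normalizations and filters, a replicate block and leaving out libraries. The edgeR step was tested on simulated counts. Windows of 50 bases (100 as the alternative) were compared on both strands. Python 3.11.15 and matplotlib 3.10.9 drew the plots.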

Additional observations from a re-analysis of the deposited data

How the results depend on the processing

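No mitochondrially encoded gene and no mtDNA expression factor was called for KD against NC in the edgeR fit or under any alternative run, including DESeq2, other size factors, no low-count filter, a minimum of 10 counts (which dropped *mt-Atp8* and *mt-Nd4l*) and leaving out each library. With library size only, the members above 0 went from 10 to 6, the factors above 0 from 36 to 29 and the median of the mitochondrial mRNAs from 0.041 to -0.077. The median over all genes tested went from 0.011 to -0.087. Of the named genes, 6 turned direction: *mt-Co2* -0.11, *mt-Atp6* -0.12, *mt-Co3* -0.066, *mt-Cytb* -0.077, *Polrmt* -0.090 and *Lrpprc* -0.064. Genes that met the study's own criteria numbered 57 over the whole table, and 167 with no filter or 37 with a minimum of 10 counts. DESeq2 with 4 libraries, an alternative chosen after seeing the data, called 1 gene at an adjusted *P* of 0.05, which was no mitochondrially encoded gene.

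Leaving out 1 library at a time, that count of 57 ran from 33 (without NC replicate 2) to 139 (without siRNA596 replicate 2), and the median log2 fold change of the mitochondrial mRNAs from -0.10 to 0.24. The KD minus NC difference ran from -0.247 to -0.0456 points for the share of the library, 0.0878 to 1.13 for rRNA, -0.0104 to 0.0139 for tRNA, -2.23 to 6.31 for complex I, -0.845 to 2.15 for complex III, -9.09 to 2.50 for complex IV, -0.0250 to 0.0350 for complex V and -0.0346 to 0.766 for *mt-Nd6*. The turns came without siRNA596 replicate 2, and for complex V also without NC replicate 1. Log2 fold changes ran from -0.0011 to 0.68 for *mt-Rnr1*, -0.20 to 0.20 for *mt-Rnr2*, -0.16 to 0.36 for *mt-Nd1*, -0.41 to 0.053 for *mt-Co1*, -0.37 to 0.28 for *mt-Co2*, -0.62 to 1.86 for *mt-Atp8*, -0.34 to 0.50 for *mt-Atp6*, -0.34 to 0.63 for *mt-Co3*, -1.37 to -0.52 for *mt-Nd4l*, -0.065 to 0.45 for *mt-Nd4*, -0.060 to 0.52 for *mt-Nd6*, -0.11 to 0.15 for *mt-Cytb*, -0.26 to 0.20 for *mt-Tp*, -0.093 to 0.14 for *Polrmt*, -0.039 to 0.13 for *Lrpprc*, -0.094 to 0.30 for *Mtpap* and -0.020 to 0.51 for *Elac2*. Without siRNA596 replicate 2, values that turned direction and are not an end of these ranges were -0.0186 points for complex V and log2 fold changes of -0.33 for *mt-Atp6*, -0.28 for *mt-Co3*, 0.14 for *mt-Rnr2*, -0.061 for *Polrmt* and -0.027 for *Lrpprc*. The cause was not tested.

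NC and siRNA596 share replicate numbers 1 and 2, but the labels do not say that a number marks a pair, and the deviations of same-numbered libraries correlated at 0.126. For siRNA596 against NC, the fit with a replicate block called 0 mitochondrially encoded genes, as the fit without it did. The block moved the genes that met the study's criteria from 41 to 426, and DESeq2 gave 389. Leaving out 1 library, this count ran from 27 to 5369 and the mitochondrial calls from 0 to 8. The upper ends of both ranges came without siRNA596 replicate 1, where the library labelled siRNA596 replicate 2 stands alone and is assumed to vary like NC. Genes over the whole table were called in that fit at about the same rate as mitochondrially encoded genes. The calls of that fit therefore do not single out mitochondrially encoded genes. The median log2 fold change of that fit was 0.54 for the 13 mRNAs, beside -0.08 over all genes tested. Low counts (*mt-Atp8*, *mt-Nd3*, *mt-Nd4l*) and the number of libraries limit what could be detected.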
